A study of Homo sapiens with 4 samples.

Results

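The numbered zinc finger genes (symbols made of ZNF and a number) were followed by RNA sequencing in HGC27 cells, a line established from a human gastric cancer, cultured with or without lactate. The members were chosen by a rule on their level, set with earlier results of these data known. The rule takes the mean over both groups, so a gene can pass it through its higher group. The members are the ZNF genes that averaged 5 TPM or more over the 4 libraries, TPM being a measure of reads per length of the gene as a share of the library. Of 478 such names in a table of 60666 rows, 207 reached that level, and each of them was above 0 in all 4 libraries. The medium of both groups was DMEM that held no glucose and was supplemented with serum and antibiotics. The noglu group (n = 2) received nothing more, and the lactate group (n = 2) was given lactate at 25 mM for 24 h. The purpose was to see whether lactate turns on genes of the Hippo pathway. Whether the replicates of a group came from separate cultures is not stated in the labels, and the p-values therefore reflect the spread of these 4 libraries, which could be technical. The cells are a single line, and no group with glucose is among the samples used here.

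ZNF genes encode proteins with C2H2 zinc fingers, short folds in which paired cysteines and paired histidines hold a zinc ion and neighbouring fingers read DNA side by side. Many of them also carry a KRAB domain, which recruits the corepressor TRIM28 (also known as KAP1). TRIM28 in turn brings in the histone methyltransferase SETDB1, HP1 proteins and the NuRD deacetylase complex, and the best known targets of this pathway are retroelements. Others carry a SCAN domain, through which they pair with each other. Many ZNF genes of the primate lineage lie in tandem clusters on chromosome 19. Members without a KRAB domain include promoter activators, RNA-binding proteins and ribosome factors.

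The 4 members that passed the test of lactate against noglu were ZNF226, ZNF496, ZNF217 and ZNF511, and the DNA of each one's first finger shows the unit that names the family. Here and below, a finger is a match to a fixed pattern of cysteine and histidine spacing, which may miss fingers spaced otherwise. The sequences are coding DNA of GENCODE 29 on GRCh38, with the codons of the paired cysteines and the paired histidines in capitals. Between the capitals the spacing differs, and ZNF511 has the longest stretch, of 72 bases, against 63 in ZNF226 and ZNF496 and 66 in ZNF217.
ZNF226 first finger, residues 309 to 329: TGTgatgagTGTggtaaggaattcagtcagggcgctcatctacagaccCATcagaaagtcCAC
ZNF496 first finger, residues 437 to 457: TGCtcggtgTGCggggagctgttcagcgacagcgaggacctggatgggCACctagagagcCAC
ZNF217 first finger, residues 67 to 88: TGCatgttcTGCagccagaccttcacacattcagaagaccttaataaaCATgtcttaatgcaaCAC
ZNF511 first finger, residues 82 to 105: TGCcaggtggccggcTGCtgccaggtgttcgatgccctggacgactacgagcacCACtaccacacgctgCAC

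The promoters of the same 4 genes follow, from 250 bases before to 50 after the RefSeq start site on GRCh38.p14. They are shown because the motif counts below are read from such windows. Capitals mark matches on either strand to the ETS core CGGAAG and to TGACGT, part of the cAMP response element. No match to GGAATG, the core bound by TEAD proteins, or to the E-box CACGTG was found in these windows. The GC content was 54.0% in ZNF226, 78.3% in ZNF496, 72.3% in ZNF217 and 77.3% in ZNF511.
ZNF226 promoter, chr19:44164850-44165149, plus strand: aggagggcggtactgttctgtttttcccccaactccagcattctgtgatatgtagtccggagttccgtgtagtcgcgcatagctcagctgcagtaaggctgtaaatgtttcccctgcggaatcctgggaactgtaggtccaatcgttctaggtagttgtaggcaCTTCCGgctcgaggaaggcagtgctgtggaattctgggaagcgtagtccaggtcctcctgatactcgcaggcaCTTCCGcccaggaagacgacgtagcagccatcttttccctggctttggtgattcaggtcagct
ZNF496 promoter, chr1:247331818-247332117, minus strand: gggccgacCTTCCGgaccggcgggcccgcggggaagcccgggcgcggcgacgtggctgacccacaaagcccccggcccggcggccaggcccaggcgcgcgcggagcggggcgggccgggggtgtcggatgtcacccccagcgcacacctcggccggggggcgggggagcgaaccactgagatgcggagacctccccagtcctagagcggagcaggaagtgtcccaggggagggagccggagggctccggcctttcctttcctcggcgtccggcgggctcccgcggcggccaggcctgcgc
ZNF217 promoter, chr20:53593790-53594089, minus strand: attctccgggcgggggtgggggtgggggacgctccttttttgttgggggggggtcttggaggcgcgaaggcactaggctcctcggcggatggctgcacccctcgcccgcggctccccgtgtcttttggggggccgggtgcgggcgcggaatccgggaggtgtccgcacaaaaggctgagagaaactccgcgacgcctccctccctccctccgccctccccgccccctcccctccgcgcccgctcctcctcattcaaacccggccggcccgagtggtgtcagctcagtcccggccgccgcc
ZNF511 promoter, chr10:133308664-133308963, plus strand: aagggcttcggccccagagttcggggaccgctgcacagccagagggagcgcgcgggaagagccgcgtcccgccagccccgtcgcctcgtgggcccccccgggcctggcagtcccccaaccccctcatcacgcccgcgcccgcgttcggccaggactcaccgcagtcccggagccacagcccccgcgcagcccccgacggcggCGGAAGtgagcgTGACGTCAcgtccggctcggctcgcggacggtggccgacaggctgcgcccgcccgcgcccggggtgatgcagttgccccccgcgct
ZNF226 held ETS matches 86 and 13 bases before its start site (offsets -86 and -13), and ZNF496 held a single one at -242. In ZNF511 an ETS match at -48 was followed by overlapping TGACGT matches on both strands, at -36 and -34. ZNF217 had no match to any of the 4 motifs.

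The columns summed to between 995439 and 996089 TPM, and between 23272 and 25764 rows were above 0. TPM values keep no record of depth, so depth is unknown. The mesenchymal gene VIM lay between 2747 and 2984 TPM, while the epithelial genes EPCAM and KRT18 stayed under 1 TPM, KRT19 was at most 0.15 TPM, CDH1 lay between 0.83 and 3.76 TPM and KRT8 between 1.87 and 6.07 TPM. The stomach genes ATP4B, PGC and CBLIF were listed at 0 and ATP4A was at most 0.04 TPM, so these markers of gastric cells were absent or nearly so. DCN (162.1 to 213.1 TPM) and LUM (151.9 to 195.7 TPM), genes of fibroblast matrix, were abundant, while the fibroblast gene PDGFRB lay between 1.48 and 4.90 TPM. With lactate DCN lay apart and lower and PDGFRB apart and higher, and neither passed the test of lactate against noglu. The blood cell gene CD3E was listed at 0, PTPRC was at most 0.30 TPM and CD68 at most 1.42 TPM, and of the endothelial genes PECAM1 and CDH5 were at most 0.01 TPM and VWF at most 0.23 TPM. Of the 21 marker genes, KRT8 (1.98 to 6.04 TPM) and COL1A2 (16.9 to 36.9 TPM) passed that test, both higher with lactate. Their part in the results on ZNF genes was not tested. In bulk RNA, fewer cells of a kind and less RNA per cell cannot be told apart.

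Few ZNF genes passed the test of lactate against noglu. With 2 libraries per group, a gene that did not pass is not shown to be unchanged. Of the 207 members, 3 were called higher and 1 lower (adjusted p under 0.05, limma across the 15051 rows that averaged 1 TPM or more). Over all tested rows 706 were called higher, or 4.69%, and 286 lower, or 1.9%. The members' share of calls was thus 1.93% against 6.59% of all rows in both directions together. Under median-ratio scaling, which shifts every value of a library by the same factor, the calls over all rows were 398 higher and 350 lower. At an unadjusted p under 0.05, 37 members (17.9%) and 4249 of all rows (28.2%) passed. Both lactate libraries lay above both noglu libraries in 50 members (24.2%), against 37% of all tested rows, and below both in 46 (22.2%), against 21.3%. In the other 111 members the groups overlapped. Because the mean over all 4 libraries chose the members, some entered through their higher group: 14 were under 5 TPM on average in noglu and 4 in lactate. Of those 14, 8 lay apart and higher, and of those 4, 3 lay apart and lower.

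**Figure D1:**
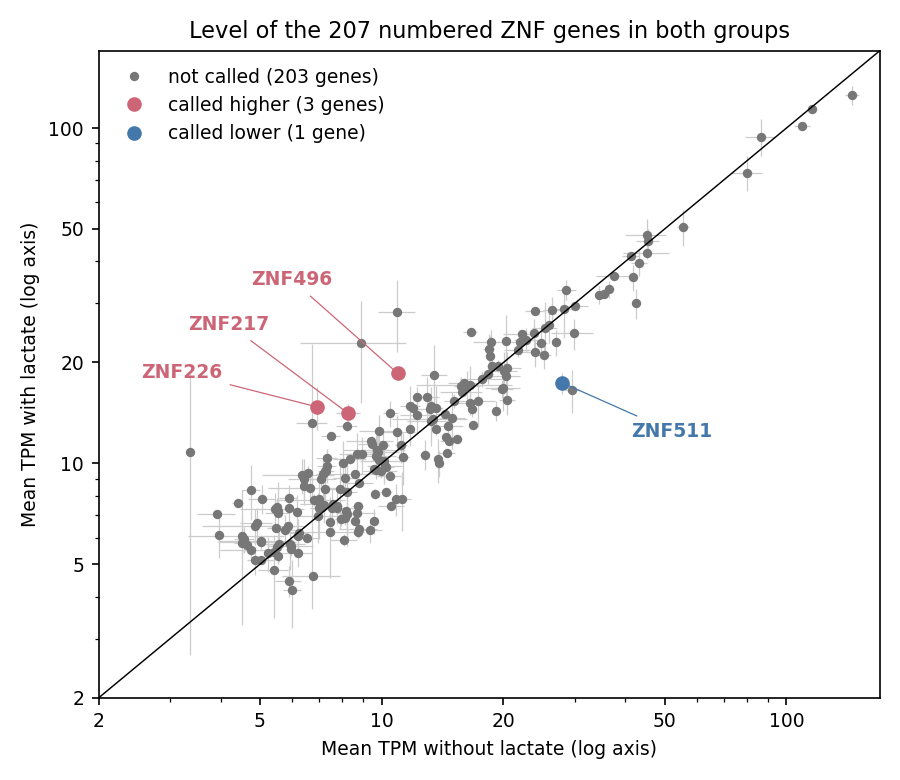
Mean TPM of each of the 207 ZNF genes without lactate (horizontal, log axis) and with lactate (vertical, log axis). Points are means of 2 libraries, grey lines join the lower and the higher library, and the black line marks equal levels. Most genes sit on the line, and the 3 called higher and the 1 called lower are coloured.

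The members were mostly low. Their mean level ran from 5.005 TPM (ZNF852) to 135.4 TPM (ZNF146), with a median of 10.05. Of the 207, 101 lay under 10 TPM, 66 between 10 and 20, 34 between 20 and 50 and 6 at 50 or more. Together they made up 0.315% and 0.330% of the noglu libraries and 0.310% and 0.341% of the lactate libraries, so the groups overlapped in the family's total.

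The median log2 fold change of the members (lactate over noglu, on the log2(TPM + 1) scale used throughout, which understates the change of low genes) was 0.03, against 0.08 over all tested rows. Its sign depends on the scaling, being -0.05 under median-ratio scaling, where all rows had a median of 0.01. The middle 50% of members lay between -0.14 and 0.24. The size of the differences was small: the median absolute log2 fold change was 0.18 in the members and 0.23 in the 10741 tested rows averaging 5 TPM or more. A log2 fold change beyond 0.5 in either direction was seen in 17 members and beyond 1 in 2, ZNF277 and ZNF423.

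**Figure D2:**
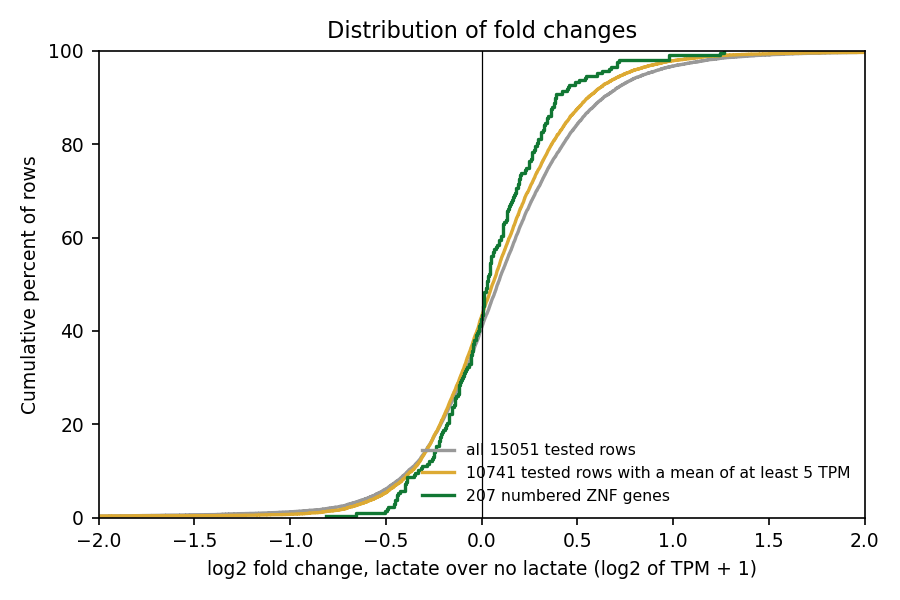
Cumulative percent of rows (vertical) by log2 fold change of lactate over no lactate (horizontal) for the 207 ZNF genes, the 10741 tested rows averaging 5 TPM or more and all 15051 tested rows. The curve of the ZNF genes is the steepest, with a median absolute log2 fold change of 0.18 against 0.23 and 0.25. Values beyond 2 in either direction are outside the axis.

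The gap between the lactate replicates was wider than that difference. Between the replicates of a group, the members' log2 values differed by a median of 0.14 in noglu and 0.23 in lactate. The same gaps in all tested rows averaging 5 TPM or more were 0.13 and 0.17. Lactate 2 was above lactate 1 in 140 of the 207 members, and noglu 2 above noglu 1 in 131. Across the members, log2 values of the noglu libraries correlated at 0.97 and those of the lactate libraries at 0.92, beside 0.93 and 0.94 between lactate 1 and the noglu libraries and 0.89 and 0.90 between lactate 2 and the noglu libraries. Over all tested rows the lactate libraries correlated at 0.97, and the groups between 0.95 and 0.96. These are correlations across genes of the same libraries, and genes are not independent replicates.

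A gap of more than 1 on the log2 scale was found in 3 members in lactate and in none in noglu. ZNF79, a KRAB protein, was at 3.33 and 3.38 TPM in noglu and at 2.69 and 18.9 TPM in lactate. ZNF771 was at 7.33 and 6.15 TPM in noglu and at 3.67 and 22.7 TPM in lactate. ZNF292, a large protein found mutated in several tumours, was at 4.75 and 4.31 TPM in noglu and at 3.29 and 8.31 TPM in lactate. In each of them lactate 2 was the highest library and lactate 1 the lowest, so the groups overlapped and the mean of lactate rests on 1 library.

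ZNF226 had the largest change among the called genes. It lies at chr19:44165100-44199490 and encodes a KRAB protein of 803 residues with 17 fingers. It was at 6.88 and 6.97 TPM in noglu and at 12.54 and 16.94 TPM in lactate. The groups lay apart, and the lactate libraries differed more from each other than those of noglu. Its log2 fold change was 0.98 ± 0.17 (SE, n = 2 per group, limma adjusted p = 0.0426).

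ZNF496 (chr1:247297415-247331867) carries a SCAN domain, a KRAB box and 4 fingers, and binds the histone methyltransferase NSD1. It was at 10.55 and 11.38 TPM in noglu and at 18.53 and 18.56 TPM in lactate, the tightest lactate pair of the called genes. Its log2 fold change was 0.71 ± 0.11 (SE, n = 2 per group, limma adjusted p = 0.0390).

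ZNF217 (chr20:53567071-53597702) has 8 fingers and no KRAB box. It is an oncogene of the amplified region on the long arm of chromosome 20 and works with the corepressor CtBP. It was at 7.70 and 8.83 TPM in noglu and at 13.21 and 15 TPM in lactate, with all lactate values above those of noglu. Its log2 fold change was 0.71 ± 0.14 (SE, n = 2 per group, limma adjusted p = 0.0494), just inside the threshold, and the call ended under median-ratio scaling (adjusted p = 0.0562).

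ZNF511 (chr10:133308914-133313161) was the only called member that fell, and has 3 fingers in 262 residues. It was at 26.89 and 28.97 TPM in noglu and at 18.65 and 16.13 TPM in lactate. Its log2 fold change was -0.66 ± 0.12 (SE, n = 2 per group, limma adjusted p = 0.0470). Its value is uncertain for another reason: 54.3% of the 50-base windows of its longest-protein transcript also occur in transcripts of other genes, most often TUBGCP2, an overlapping gene whose product nucleates microtubules. TUBGCP2 was at 26.51 and 21.31 TPM in noglu and at 23.47 and 20.56 TPM in lactate, a log2 fold change of -0.11 that did not pass (adjusted p = 0.669).

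The 4 calls are close to the threshold. Leaving out noglu 1, noglu 2, lactate 1 or lactate 2 ended all of them, with adjusted p between 0.135 and 0.301. They also ended with no filter on low values (0.118 to 0.138) and with a constant variance prior (0.0680 to 0.0801). Leaving out a library left between 0 and 8 calls over all 15051 rows, and 11 to 36 members at an unadjusted p under 0.05.

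Several members with larger differences did not pass. ZNF277, a transcription factor that binds the ribosomal protein RPS2 (3 fingers found), was at 9.78 and 12.06 TPM in noglu and at 21.48 and 35.11 TPM in lactate. Its log2 fold change of 1.26 ± 0.25 was the largest of the family (SE, n = 2 per group, limma adjusted p = 0.0506). ZNF423, a cofactor of SMAD and EBF proteins (27 fingers found), was at 6.28 and 11.47 TPM in noglu and at 15.13 and 30.47 TPM in lactate. The groups lay apart, but its replicates differed by 0.78 in noglu and 0.96 in lactate on the log2 scale (log2 fold change 1.24 ± 0.40, adjusted p = 0.121). ZNF283, a KRAB protein, was at 3.5 and 4.34 TPM in noglu and at 7.18 and 6.94 TPM in lactate (log2 fold change 0.72, adjusted p = 0.0614). Its noglu mean was 3.92 TPM, so it became a member through lactate, and its rise carries that choice.

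Among the lower values, ZNF428 was at 28.44 and 30.76 TPM in noglu and at 18.93 and 14.15 TPM in lactate. Its log2 fold change of -0.82 ± 0.16 missed the threshold (SE, n = 2 per group, limma adjusted p = 0.0507). It shares 20.4% of its windows with other genes, most often SRRM5, which was under 1 TPM in every library. ZNF544, ZNF326, ZNF181 and ZNF114 had log2 fold changes of -0.50, -0.50, -0.49 and -0.46, with limma adjusted p of 0.109, 0.0834, 0.193 and 0.247. All but ZNF326 encode KRAB proteins of chromosome 19. The lactate mean of ZNF114 was 4.19 TPM, so it became a member through noglu (6.01 TPM), and its fall carries that choice.

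**Figure D3:**
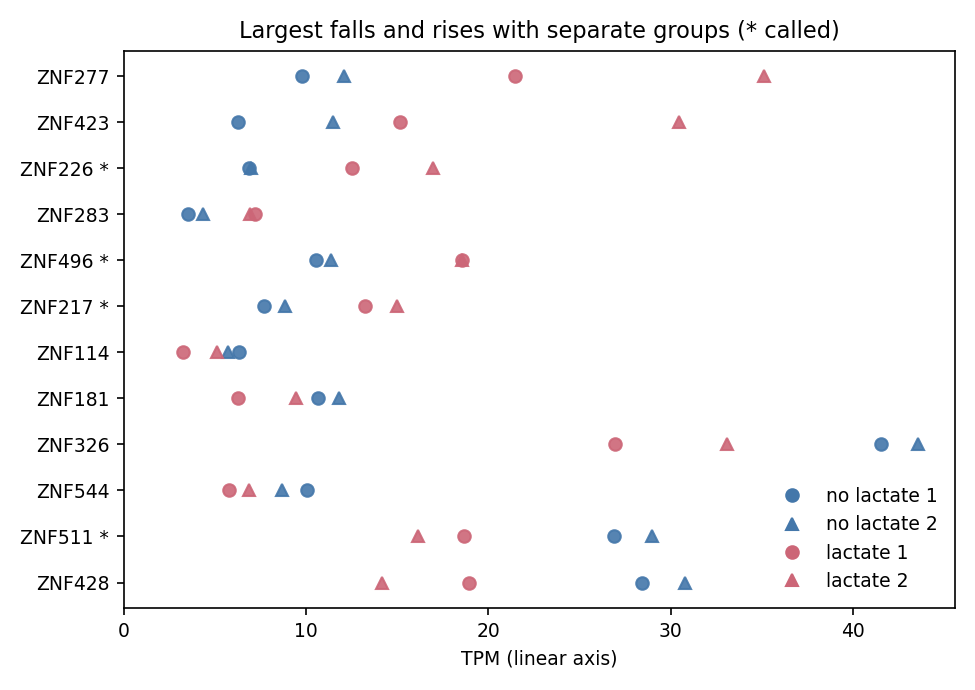
TPM (horizontal, linear axis) in each of the 4 libraries for the 6 largest falls and the 6 largest rises among ZNF genes whose groups did not overlap. Circles are replicate 1, triangles replicate 2, and an asterisk marks a called gene. ZNF283 became a member through lactate and ZNF114 through noglu. In ZNF277 and ZNF423 lactate 2 lies far above lactate 1 (35.11 against 21.48 TPM and 30.47 against 15.13 TPM).

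The most abundant members gave no call. ZNF146, also known as OZF and made almost only of fingers, was at 139.7 and 151.3 TPM in noglu and at 117.1 and 133.6 TPM in lactate (log2 fold change -0.22, adjusted p = 0.253). ZNF207, the kinetochore and spindle protein BuGZ, was at 115.8 and 115.4 TPM in noglu and at 116.3 and 110.9 TPM in lactate (-0.03, adjusted p = 0.876). ZNF595, a KRAB protein, was at 104.4 and 114.2 TPM in noglu and at 99.4 and 103.0 TPM in lactate (-0.11, adjusted p = 0.489). The other members of the 10 most abundant were ZNF706, ZNF638, ZNF692, ZNF598, ZNF664, ZNF593 and ZNF131, with log2 fold changes between -0.14 and 0.12.

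None of the 11 activators and broad promoter factors was called, beside 6.59% of all tested rows. Their median log2 fold change was -0.11 (-0.20 under median-ratio scaling), moving to -0.03 without lactate 1, to -0.19 without noglu 1 and to -0.20 without lactate 2. Of the 11, 9 were below 0 and 2 above it (18.2%), while 59.2% of all tested rows were above 0. None lay apart and higher and 5 lay apart and lower, against 37% and 21.3% of all tested rows. This list and the other lists by role below were drawn up with earlier results of these data known. Their counts and shares are descriptions only. ZNF263, a SCAN and KRAB protein, was at 19.32 and 19.11 TPM in noglu and at 15.37 and 13.37 TPM in lactate (-0.40, adjusted p = 0.109). ZNF143, which binds many promoters, was at 15.78 and 14.95 TPM in noglu and at 11.71 and 11.92 TPM in lactate (-0.35, adjusted p = 0.119). The groups overlapped in its close relative ZNF76, with 19.80 and 15.61 TPM in noglu and 16.91 and 18.86 TPM in lactate (0.02). ZNF335, a subunit of a histone H3 methyltransferase complex, had a log2 fold change of -0.22, and ZNF410, which controls the NuRD gene CHD4, of -0.11, with adjusted p of 0.308 and 0.539. Most of ZNF410's windows (83.5%) and 53.2% of those of ZNF384 occur in transcripts of other genes, and the gene sharing most was at most 6.30 TPM. ZNF131, ZNF24, ZNF384 and ZNF148 lay between -0.13 and -0.02, and ZNF281 was at 0.10.

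Members that act on RNA and ribosomes were not called either, in any of 9 cases, beside 6.59% of all tested rows. With so few genes, 0 calls cannot be told apart from that share. Of the 9, 0 lay apart and higher and 3 apart and lower, against 37% and 21.3% of all tested rows. ZNF326, part of the DBIRD complex that couples transcription and splicing, had the clearest separation. It was at 41.53 and 43.56 TPM in noglu and at 26.93 and 33.08 TPM in lactate (log2 fold change -0.50 ± 0.13, adjusted p = 0.0834). ZNF598, the ubiquitin ligase that senses collided ribosomes, was at 39.95 and 50.37 TPM in noglu and at 53.43 and 42.81 TPM in lactate (0.09), and the groups overlapped. ZNF622, the human relative of yeast Rei1, a factor in maturation of the large ribosomal subunit, was at 34.95 and 35.95 TPM in noglu and at 32.93 and 31.11 TPM in lactate (-0.14, adjusted p = 0.393). ZNF593, a relative of the yeast export factor Bud20 of that subunit, was at -0.08, ZNF346, which binds double-stranded RNA, at -0.15, and ZNF638, a silencer of unintegrated retroviral DNA, at -0.12. Most of ZNF593's windows (92.6%) occur in transcripts of other genes, most often AL391650.1, which was at most 0.45 TPM. ZNF706, ZNF106 and the splicing factor ZNF830 were at 0.12, 0.06 and -0.24.

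Among the members with a role in mitosis and genome stability, ZNF451, a SUMO ligase that helps to resolve trapped topoisomerase, separated most. It was at 15.93 and 17.23 TPM in noglu and at 24.18 and 24.98 TPM in lactate, with a log2 fold change of 0.54 ± 0.11 (SE, n = 2 per group, limma adjusted p = 0.0512), outside the threshold. ZNF827, which recruits NuRD to telomeres, was at 8.34 and 7.41 TPM in noglu and at 6.37 and 10.36 TPM in lactate, and its groups overlapped. ZNF365 of this list was too low to be a member.

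Repressors of retroelements and imprinted genes gave no call among the 4 that were members, beside 6.59% of all tested rows. ZNF91, which silences SVA elements, was at 3.59 and 6.13 TPM in noglu and at 5.73 and 7.29 TPM in lactate. ZNF417, a repressor of endogenous retroviruses, was at 5.95 and 4.14 TPM in noglu and at 5.91 and 5.85 TPM in lactate, and 40.2% of its windows occur in other genes, most often its near copy ZNF587. ZNF274, which marks other ZNF genes with SETDB1, was at 11.52 and 15 TPM in noglu and at 15.57 and 11.26 TPM in lactate. In these 3 genes the groups overlapped, and only ZNF202 lay apart, with 9.78 and 11.33 TPM in noglu and 7.59 and 7.39 TPM in lactate (-0.44, adjusted p = 0.110).

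Among 10 members linked to tumours, ZNF217 was the only call, and 4 lay apart and higher while none lay apart and lower, against 37% and 21.3% of all tested rows. ZNF516, which recruits an LSD1 and CtBP complex, was at 4.51 and 5.02 TPM in noglu and at 6.78 and 9.86 TPM in lactate (0.67 ± 0.20, adjusted p = 0.107). It is one of those 4, and with a noglu mean of 4.765 TPM it became a member through lactate, so that count carries the choice of members. ZNF687, a subunit of the same Z3 module as ZNF532 and ZNF592, was at 11.97 and 12.42 TPM in noglu and at 16.93 and 14.52 TPM in lactate (0.34, adjusted p = 0.162). ZNF532 (-0.01) and ZNF592 (-0.10) of that module had overlapping groups. ZNF395 had a log2 fold change of 0.26, but 41.7% of its windows occur in other genes, most often the overlapping FBXO16, which rose (7.97 and 8.54 TPM in noglu, 13.56 and 14.61 TPM in lactate, log2 fold change 0.70, adjusted p = 0.0420). ZNF703 and ZNF503, sister repressors of the NET family, were at 0.10 and 0.03, and ZNF367 at -0.17.

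Of the 206 members with a translated protein, a KRAB A box was found in 109 and not in 97. The search covered only the longest protein, so the 97 may include genes with a box that it missed. ZNF117 had no translated protein and is in neither class. The KRAB genes were lower in level, with a median of 8.04 TPM against 15.8 TPM. Of the KRAB genes 2 were called higher, and of the others 1 higher and 1 lower. Their median log2 fold changes were 0.05 and 0.01, and both turn negative under median-ratio scaling, to -0.03 and -0.08. Without lactate 1 the KRAB median was 0.16, and without lactate 2 both were negative. Of the KRAB genes 28.4% lay apart and higher and 22.9% apart and lower, and of the others 19.6% and 21.6%, against 37% and 21.3% of all tested rows. A mean under 5 TPM in noglu was found in 11 of the KRAB genes and 3 of the others. Of these, 6 KRAB genes and 2 others lay apart and higher. With a mean under 5 TPM in lactate, 3 KRAB genes and 0 others lay apart and lower. The shares of both classes thus carry the choice of members. The 13 members with a SCAN domain had 1 call, ZNF496, with 2 apart and higher (15.4%) and 5 apart and lower (38.5%).

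The number of fingers found varied from 0 to 33, the most being in ZNF462. The pattern may miss fingers, so a count of 0 does not mean that a protein has none. In the 33 members with at least 15 fingers the median log2 fold change was 0.11 (0.03 under median-ratio scaling), and 13 lay apart and higher (39.4%) and 4 apart and lower (12.1%), against 37% and 21.3% of all tested rows. These counts carry the choice of members, since 7 of the 33, and 5 of the 13, were under 5 TPM on average in noglu. In the 60 members with 10 to 14 fingers the median was 0.09 (0.01 under that scaling), in the 67 with 5 to 9 it was 0.01, and in the 46 with up to 4 it was 0.01, and the medians of these last classes turn to -0.07 and -0.08 under that scaling. Single libraries moved them: without lactate 1 the median with at least 15 fingers was 0.23, and without lactate 2 that with 10 to 14 fingers was -0.02 and that with up to 4 was -0.06. Without noglu 1 the median with 5 to 9 fingers was -0.06. Members with many fingers were also lower, at a median of 7.08 TPM against 16.4 TPM in the class with up to 4 fingers. These are descriptions of genes measured in the same libraries, and no test of the classes was made.

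**Figure D4:**
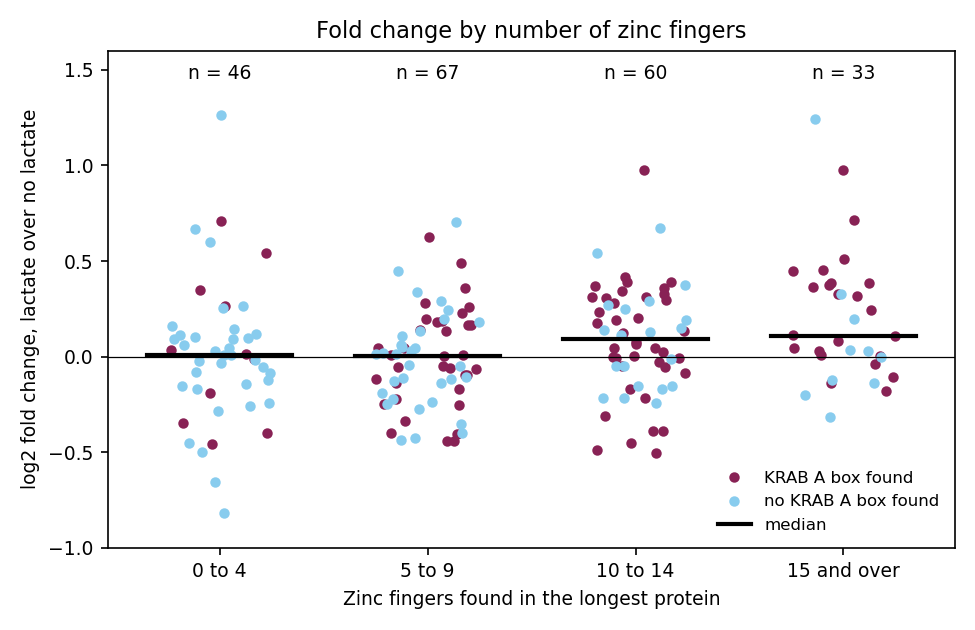
Log2 fold change of lactate over no lactate (vertical) of each ZNF gene by its number of zinc fingers (horizontal, 4 classes of 46, 67, 60 and 33 genes). Points are genes, coloured by whether a KRAB A box was found, with sideways scatter for legibility, and black bars are class medians. The medians were 0.01, 0.01, 0.09 and 0.11.

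Chromosome 19 held 70 of the 207 members, more than any other, followed by chromosome 7 with 23 and chromosome 16 with 20. The 70 had 1 call, ZNF226, with 24.3% apart and higher and 24.3% apart and lower. In the 137 members elsewhere the shares were 24.1% and 21.2%, and in all tested rows 37% and 21.3%. Their median log2 fold change was 0.02 against 0.03. Neighbours on the chromosome lay on both sides. In the stretch from 43596392 to 44237268 that holds ZNF226, ZNF283 and ZNF227 were apart and higher as well, while ZNF576 and ZNF428 were apart and lower and ZNF45 and ZNF224 overlapped. Of these, ZNF283 became a member through lactate, with a noglu mean of 3.92 TPM. ZNF227 was at 6.66 and 6.46 TPM in noglu and at 8.91 and 9.83 TPM in lactate (log2 fold change 0.45, adjusted p = 0.0982), and ZNF576 was at 10.59 and 9.89 TPM in noglu and at 8.19 and 8.24 TPM in lactate (-0.29, adjusted p = 0.201). In the stretch from 55576774 to 56160893, ZNF581 was apart and higher (8.68 and 7.73 TPM in noglu, 13.39 and 12.49 TPM in lactate, adjusted p = 0.0568), and ZNF444 and ZNF787 were apart and lower.

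RefSeq promoters were found for 183 members. The ETS core CGGAAG, of which the sequences of ZNF226, ZNF496 and ZNF511 above show examples, was present in 95 of them (51.9%), against 19.5% of all 35116 promoters and 36.1% of the 8074 promoters of protein-coding genes averaging 5 TPM or more. The element TGACGT was in 14.75%, against 7.98% and 12.7%. The TEAD core GGAATG was in 12.02%, against 14.03% and 10.5%, and the E-box CACGTG in 7.10%, against 7.26% and 10.8%. The members' promoters had a median GC content of 63.0% against 58.7% for all promoters. A match is a string of letters and not a bound site.

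Members with and without the ETS core had median log2 fold changes of 0.04 and 0.01, with 21 of 95 and 23 of 88 apart and higher and the same numbers, 21 and 23, apart and lower. Of the 22 members with the TEAD core none was called, 2 lay apart and higher (9.09%) and 6 apart and lower (27.3%), against 37% and 21.3% of all tested rows. Of the 13 with an E-box 7 lay apart and lower (53.8%), among them ZNF202, ZNF783 (-0.40) and ZNF512 (-0.26), and 2 apart and higher (15.4%), and none was called.

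In a list of KRAB corepressor and heterochromatin genes, UHRF1, RBBP4 and DNMT1 were called lower with lactate. The list was drawn up with earlier results of these data known, so its counts and shares are descriptions only. Of 36 corepressor and heterochromatin genes 35 were tested, 3 were called lower and none higher, against 1.9% and 4.69% of all rows. UHRF1, which reads hemimethylated DNA, was at 92.49 and 95.75 TPM in noglu and at 47.54 and 42.85 TPM in lactate (log2 fold change -1.04 ± 0.10, SE, n = 2 per group, limma adjusted p = 0.0244). RBBP4, a histone chaperone of NuRD and other complexes, was at 103.0 and 106.4 TPM in noglu and at 63.76 and 64.63 TPM in lactate (-0.70 ± 0.09, adjusted p = 0.0318). DNMT1, the maintenance DNA methyltransferase, was at 211.0 and 196.9 TPM in noglu and at 150.9 and 147.4 TPM in lactate (-0.45 ± 0.09, adjusted p = 0.0484). All 3 also serve DNA replication, outside the KRAB pathway. Leaving out any 1 of the 4 libraries, using no filter or using a constant variance prior ended these calls too, and median-ratio scaling ended that of DNMT1 (adjusted p = 0.0502).

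TRIM28, the corepressor that KRAB domains bind, was at 273.1 and 260.0 TPM in noglu and at 223.8 and 204.7 TPM in lactate. The groups lay apart, but the log2 fold change of -0.31 ± 0.09 did not pass (SE, n = 2 per group, limma adjusted p = 0.0979). SETDB1 overlapped between groups, at 37.63 and 44.59 TPM in noglu and at 37.06 and 37.99 TPM in lactate (-0.12), while its partner ATF7IP was at 14.20 and 15.47 TPM in noglu and at 20.13 and 21.46 TPM in lactate (0.46, adjusted p = 0.0730). The HP1 genes CBX5, CBX3 and CBX1 had log2 fold changes of -0.32, -0.29 and -0.07. The list had a median of -0.16, which was -0.25 with median-ratio scaling, -0.08 without lactate 1 and -0.09 without noglu 2. Of the 35 genes 27 were below 0 and 8 above it (22.9%), while 59.2% of all tested rows were above 0. In the list 4 lay apart and higher (11.4%) and 17 apart and lower (48.6%), against 37% and 21.3% of all tested rows. ZFP57, which protects imprints, was listed at 0 in all libraries.

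**Figure D5:**
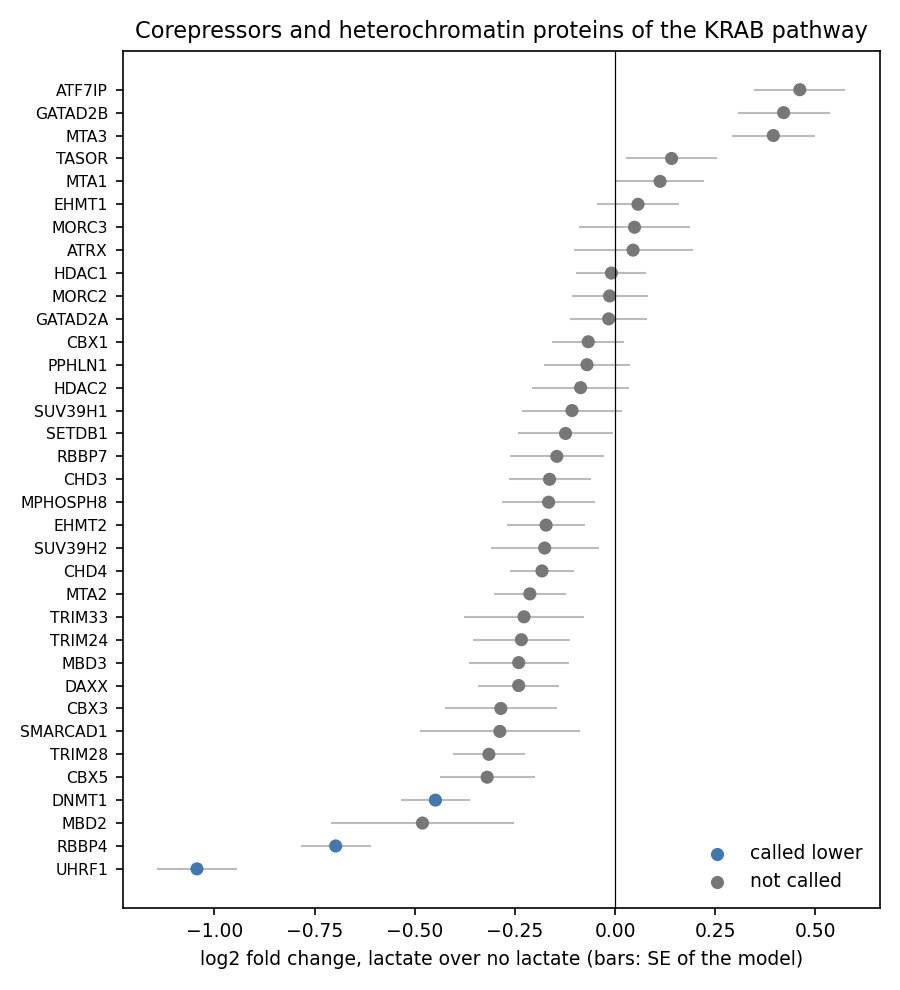
Log2 fold change of lactate over no lactate (horizontal) for the 35 tested corepressor and heterochromatin genes, ordered by value. Bars are the standard error of the model, and the 3 genes called lower are in blue. Of the 35 genes 27 lie left of 0, from -1.04 for UHRF1, and ATF7IP is the highest at 0.46.

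Other zinc finger families named ZBTB, ZSCAN, ZKSCAN and ZFP had 73 tested genes out of 88, with 2 called higher and none lower, against 4.69% and 1.9% of all tested rows. Their median log2 fold change was 0.10 (0.03 under median-ratio scaling). Of these, 27 lay apart and higher (37%) and 10 apart and lower (13.7%), against 37% and 21.3% of all tested rows. ZBTB25, a BTB-domain repressor, was at 3.87 and 3.35 TPM in noglu and at 9.09 and 7.60 TPM in lactate (1.02 ± 0.16, limma adjusted p = 0.0390). ZFP36, whose fingers are of another type and bind AU-rich elements in mRNA, was at 2.35 and 2.82 TPM in noglu and at 6.78 TPM in both lactate libraries (1.12 ± 0.16, limma adjusted p = 0.0352). Both calls ended when any 1 library was left out, with no filter and with a constant variance prior, and that of ZBTB25 also under median-ratio scaling (adjusted p = 0.0502).

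The level that chose the members left close neighbours on both sides. Just inside were ZNF564, ZNF337 and ZNF852 with means of 5.08, 5.04 and 5.005 TPM, and just outside ZNF57, ZNF236 and ZNF107 with 4.92, 4.89 and 4.85 TPM. Of the windows of ZNF564 84.7% occur in other genes, most often AC010422.6 (at most 0.46 TPM). Of those of ZNF337 77.9% do, most often in ZNF337-AS1 (at most 3.68 TPM). The group means of 189 members were at 5 TPM or more in both groups, of 193 in noglu and of 203 in lactate. The 181 numbered ZNF genes tested below that level had no call by limma, 20 at an unadjusted p under 0.05 and a median log2 fold change of 0.08, with 33.1% apart and higher and 15.5% apart and lower, against 37% and 21.3% of all tested rows.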

How the data were processed

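The authors deposited one table of TPM values for the 4 libraries, and the submitters' processing notes name RSEM 1.3.3 and the build hg38. The sources used here give no aligner, annotation or strand setting. TPM keeps no depth, so no counting interval was computed. Columns with comparisons by the authors were not used. Where a name had several rows the highest mean was kept.

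The members, lists and motifs were chosen with earlier results of these data known. Values were taken as log2(TPM + 1), rows averaging 1 TPM or more were tested with limma 3.58.1 (R 4.3.3, group as the only term, a variance prior that follows mean expression), and two-sided p-values were adjusted by Benjamini-Hochberg over all 15051 rows. An adjusted p under 0.05 was a call. The test was checked on simulated data. Named genes are the called members, the 10 most abundant, members of the role lists, the 6 largest differences in each direction with separate groups, and the 3 on each side of 5 TPM. From the other lists they are up to 4 called genes per direction. ZNF79, ZNF771, ZNF292, ZNF462, ZNF227, ZNF576, ZNF581, ZNF444, ZNF787, ZNF783, ZNF512, ZNF117, uncalled genes of the corepressor list and genes sharing windows were named after their values were seen.

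Fingers (C-x(2,4)-C-x(12)-H-x(3,5)-H), KRAB boxes and SCAN domains were found in the longest translated protein of GENCODE 29. For the latter, profiles built with MAFFT 7.526 and HMMER 3.4 from 80 and 12 pattern matches were used at E up to 0.001. Overlap between genes was scored as 50-base windows found in transcripts of another gene.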

Additional observations from a re-analysis of the deposited data

How the results depend on the processing

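The 4 calls among ZNF genes depend on the processing, and the members' share of calls was below that of all rows in each setting that called any member. Called higher and lower were 6 and 0 with a replicate block, 8 and 2 with a pseudocount of 0.1, 7 and 2 with a filter at 5 TPM, 11 and 3 with protein-coding rows only, and 0 and 0 with no filter, a constant variance prior, an adjusted p under 0.01 or a log2 fold change of at least 1. With a replicate block 44 members passed at an unadjusted p under 0.05, ZNF511 was lost (adjusted p = 0.0522), and ZNF277, ZNF423 and ZNF451 were gained. The deviations of libraries with the same number correlated at only 0.04 over all rows, so the numbers were not taken to pair them. Without a filter 33 members and with a constant prior 35 passed at an unadjusted p under 0.05. Leaving out each library in turn gave 0 calls in each direction, in both other lists too, and a member median of -0.0222 to 0.1055. Calls in the corepressor list were 5 with protein-coding rows only and 0 with no filter or a constant prior, and in the other families 6, 0 and 0. Over all rows these settings called 18.1%, 0% and 0.0266%. Median-ratio scaling left 2 and 1 in the 2 lists, and called 4.97% of all rows. Under that scaling the member median was -0.0513, and ZNF664 (-0.0717), ZNF827 (-0.032), ZNF106 (-0.0207), ZNF274 (-0.070), ZNF503 (-0.0531), ZNF76 (-0.0614), ZNF564 (-0.0446) and ZNF852 (-0.0076), all uncalled, changed sign. So did these uncalled genes when a library was left out, with log2 fold changes over the 4 fits of ZNF24 -0.254 to 0.0806, ZNF76 -0.141 to 0.183, ZNF106 -0.0804 to 0.203, ZNF148 -0.0390 to 0.0041, ZNF207 -0.0590 to 0.0085, ZNF236 -0.0092 to 1.111, ZNF274 -0.207 to 0.227, ZNF367 -0.393 to 0.0543, ZNF384 -0.181 to 0.0978, ZNF417 -0.0146 to 0.421, ZNF503 -0.118 to 0.178, ZNF532 -0.175 to 0.152, ZNF564 -0.0634 to 0.119, ZNF593 -0.262 to 0.104, ZNF598 -0.0731 to 0.254, ZNF638 -0.292 to 0.0527, ZNF664 -0.110 to 0.137, ZNF692 -0.315 to 0.0376, ZNF703 -0.0361 to 0.235, ZNF706 -0.0619 to 0.298, ZNF827 -0.266 to 0.358, ZNF852 -0.0523 to 0.183. For each of these, and for the settings above, the cause was not tested. Members at 2 or 10 TPM gave the same calls. Depth is unknown, and 2 libraries per group limit every p-value.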
